A study of Mus musculus with 11 samples.

Results

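The 47 genes described here encode the core autophagy machinery and its cargo receptors. They were taken as a fixed list of symbols, matched by Ensembl identifier to the heart count table, and kept where the mean over the 11 libraries was at least 1 CPM, the count scaled to the size of the library. All 47 passed that rule, out of 22608 genes in the table, and all 47 were among the 11319 genes that were tested. RNA was sequenced from the heart, labelled as ventricle, of male mice aged 8 to 16 weeks. Complete deletion (CD) mice carry a heterozygous deletion on chromosome 5 that models Williams-Beuren syndrome (WBS), on a C57BL/6J background, and their wild-type (WT) littermates served as controls. Mice received the monoacylglycerol lipase inhibitor JZL184 at 8 mg/kg, or its vehicle (VEH), by daily intraperitoneal injection for 10 days. There were 3 CD VEH, 3 CD JZL184, 3 WT JZL184 and 2 WT VEH mice. Because every CD mouse carries the deletion in all of its cells from conception, the model does not separate effects that arise in the heart from effects that arise elsewhere.

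Macroautophagy encloses cytoplasm, protein aggregates or mitochondria in a double membrane and delivers them to the lysosome. The ULK1 kinase complex starts the process, a class III phosphatidylinositol 3-kinase marks the membrane, lipid carriers of the ATG2, WIPI and ATG9 families enlarge it, and a ubiquitin-like conjugation system attaches ATG8 proteins (LC3 and GABARAP) to which cargo receptors bind. Cardiomyocytes are long-lived and densely packed with mitochondria, and loss of autophagy genes in the mouse heart is known to cause cardiomyopathy. Autophagic flux is set largely by phosphorylation, lipidation and lysosomal turnover, none of which is measured by RNA-seq.

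The libraries carried the marks their labels imply. The 14 tested genes between Gtf2i and Fkbp6, the ends of the deleted interval (chr5:134237834-135350044, GRCm38), were all lower in CD VEH than in WT VEH, with a median log2 fold-change of -1.01, and for each of the 14 every CD mouse lay below every WT mouse. Their summed level was 220.3 to 248 CPM in CD mice and 423 to 479 CPM in WT mice. No member lies in that interval, although Ulk1, Wdfy3 and Wipi2 are on the same chromosome. Sums over 6 cardiomyocyte markers ranged from 30775 to 42568 CPM over the 11 hearts, whereas the skeletal muscle list summed to between 0.939 and 1.498 CPM and the adipocyte list summed to at most 0.984 CPM, and the 4 atrial markers to between 50.5 and 218 CPM, nearly all of it Nppa, with Myl7 and Sln at or near 0. Library totals were 69660329 to 92251550 estimated counts, so that 3 counts, the limit a count of 0 allows, correspond to 0.0325 to 0.0431 CPM, far below any member.

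All members were expressed in every mouse, at mean levels between 10.5 and 458 CPM (median 40.3). Per kilobase of the longest annotated transcript, a scale on which genes can be compared, the median was 9.67 CPM per kb and the range 1.31 to 237 CPM per kb. The ATG8 protein gene Map1lc3a stood highest at 237 CPM per kb, followed by Pink1, the kinase that marks damaged mitochondria, at 193 CPM per kb and Lamp1, a major lysosomal membrane glycoprotein, at 144 CPM per kb. Gabarap was at 104 CPM per kb and the ubiquitin-binding receptor Sqstm1 at 88.3 CPM per kb. The lowest were Epg5 at 1.31, Tfe3 at 1.84, Atg2a at 2.02 and Atg2b at 2.60 CPM per kb. The lowest genes encode large proteins of membrane growth and fusion, apart from the transcription factor Tfe3. The spread over mice was small. The highest mouse exceeded the lowest by 1.09-fold for Becn1 to 1.82-fold for Atg2a, with a median over members of 1.27-fold.

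CD VEH hearts were first compared with WT VEH hearts, which asks what the deletion alone was accompanied by. At an adjusted p under 0.05 (edgeR quasi-likelihood test, Benjamini-Hochberg over all tested genes, hereafter "called"), 2 of 47 members were higher, Map1lc3a and Gabarap, and 7 were lower, Ulk1, Ulk2, Wipi1, Atg2b, Wdfy3, Epg5 and Bag3. Across all 11319 genes 15.0% were called higher and 15.4% lower, so the members were called no more often than the genes at large. The median log2 fold-change of the 47 was -0.04, against 0.01 for all tested genes, and 14 had an unadjusted p under 0.05. The 9 members called, beside 30.4% of all genes, became 1 without WT VEH mouse C (3.41% of all genes), 2 without WT VEH mouse D (10.7%), 3 without CD VEH mouse A (17.1%), 4 without CD VEH mouse E (17.5%) and 12 without CD VEH mouse C (31.3%). The calls over all genes thus fell in the same fits as those of the members. With 2 WT VEH mice and no statement of how litters were spread, p-values measure only the spread between these mice.

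JZL184 was then compared with vehicle in each genotype. In CD hearts 11 members were higher with JZL184 (Ulk1, Ulk2, Atg13, Wipi1, Atg2a, Atg2b, Atg9a, Calcoco1, Pink1, Epg5 and Bag3) and 4 were lower (Gabarap, Gabarapl2, Bnip3l and Fundc1), beside 16.8% of all genes called higher and 17.0% lower. The median of the members was 0.05 and 24 had an unadjusted p under 0.05. The total of 15 called members, beside 33.9% of all genes, fell to 6 without CD VEH mouse A (18.5% of all genes), to 6 without CD VEH mouse E (2037 of 11314 genes) and to 9 without CD JZL184 mouse E (18.9%), and was 17 without CD VEH mouse C (34.5%). With a transcript length offset, or with no filter on low counts, 1 member in place of 4 was called lower. In WT hearts 1 member was higher (Gabarap) and 7 were lower (Ulk1, Ulk2, Wipi1, Atg2b, Pink1, Epg5 and Bag3), where 15.4% of all genes were called higher and 14.0% lower, and the median of the members was -0.05. These 8 calls, beside 29.4% of all genes, became 1 without WT VEH mouse C (4.93% of all genes), 2 without WT VEH mouse D (9.11%), 4 without WT JZL184 mouse B (18.5%), 5 without WT JZL184 mouse D (25.7%) and 14 without WT JZL184 mouse A (39.5%). There were 2 when the 5 WT mice were fitted alone (14.6% of all genes). The 2 vehicle groups enter these comparisons and the genotype comparison alike, so the values are given side by side and not counted as repeated observations.

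Between the 2 JZL184-treated groups, 11 members were higher in CD than in WT hearts (Ulk1, Ulk2, Atg13, Ambra1, Wipi1, Atg2a, Atg2b, Atg9a, Calcoco1, Pink1 and Epg5) and Atg101 was lower. Of all genes 18.2% were called higher and 20.1% lower. The members called lower numbered 4 with upper-quartile scaling, 3 with DESeq2 and 0 with no filter on low counts. Those called higher numbered 11, 12 and 11, and 38.2, 41.4 and 22.8% of all genes were called in these fits. The fewest calls were made between CD JZL184 and WT VEH hearts. There 0 of 47 members were called by edgeR and 0 by DESeq2, while 5 had an unadjusted p under 0.05, and log2 fold-changes ran from -0.26 for Bag3 to 0.38 for Atg2a. Few genes of any kind were called in that comparison, 0.0442% higher and 0.141% lower. In the plot of fold-changes by role, the left panel has 7 blue points. They include 2 of the 5 initiation genes and 2 of the 7 membrane genes, where 15.4% of all genes were called lower. Whether either role held more such calls than other genes was not tested.

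**Figure D1:**
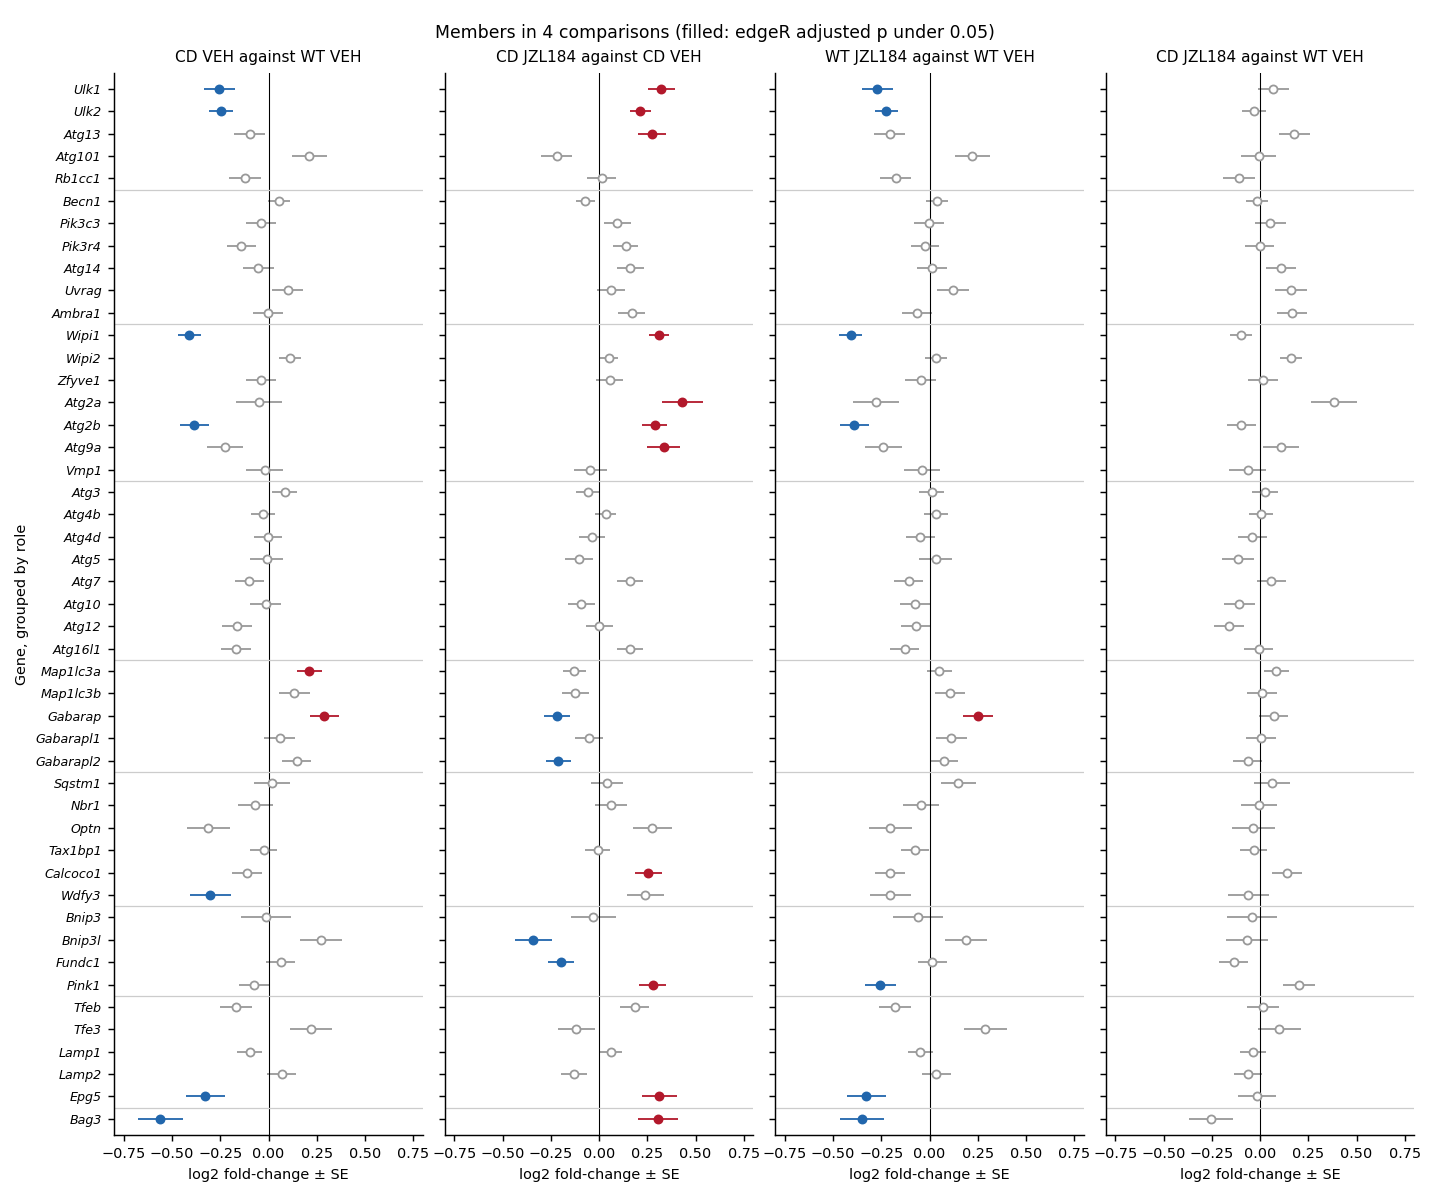
Log2 fold-change with its standard error (x axis) of the 47 members (y axis, grouped by role, grey lines between roles) in 4 comparisons. Filled points are called at an adjusted p under 0.05 (red higher, blue lower) and open points are not. CD VEH against WT VEH has 9 filled points, CD JZL184 against CD VEH 15, WT JZL184 against WT VEH 8 and CD JZL184 against WT VEH 0.

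In the initiation complex, the kinase genes Ulk1 and Ulk2 were lower in CD VEH than in WT VEH. Ulk1 (ENSMUSG00000029512.11, chr5:110784488-110810097) measured 65.5 and 67.7 CPM in WT VEH, 53.1, 59.5 and 55.7 in CD VEH, 52.2, 57.0 and 55.7 in WT JZL184, and 63.4, 73.8 and 73.8 in CD JZL184. All CD VEH and WT JZL184 mice therefore lay below all WT VEH and CD JZL184 mice. Its log2 fold-change was -0.26 ± 0.08 (SE, adjusted p = 0.032) for CD VEH against WT VEH and 0.32 ± 0.07 (adjusted p = 0.00697) for CD JZL184 against CD VEH. The call in CD VEH against WT VEH was kept in 8 of 14 alternative settings, being lost without CD VEH mouse A or E or either WT VEH mouse, with upper-quartile scaling, and with an offset that removes the relation to transcript length (-0.18), and that for JZL184 in CD hearts in 15 of 15.

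Ulk2, which shares the kinase function, was at 73.9 and 78.3 CPM in WT VEH, 62.2, 68.0 and 63.1 in CD VEH, 67.5, 65.9 and 61.2 in WT JZL184, and 75.1, 74.8 and 74.8 in CD JZL184. The same separation of mice held as for Ulk1. The difference was -0.25 ± 0.06 (adjusted p = 0.0139) in CD VEH against WT VEH and 0.21 ± 0.06 (adjusted p = 0.0138) with JZL184 in CD hearts. With a transcript length offset these were -0.15 and 0.13, neither of them called, the JZL184 call was also lost without CD VEH mouse A or E, and the genotype call without CD VEH mouse A or either WT VEH mouse. The adaptor Atg13 was called in 2 pairwise comparisons, at 0.28 ± 0.07 against CD VEH and 0.39 ± 0.07 against WT JZL184. The scaffold Rb1cc1 (FIP200) was not called in any comparison and ranged from 50.9 to 64.4 CPM. Atg101, which stabilizes ATG13, had values of 0.21 ± 0.09 between CD VEH and WT VEH (adjusted p = 0.0965) and -0.23 ± 0.08 in CD JZL184 against WT JZL184 (adjusted p = 0.0431). That call was kept in 6 of 15 alternatives, lost without CD JZL184 mouse C or E or WT JZL184 mouse A or B, and its value was -0.04 with a transcript length offset.

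The class III phosphatidylinositol 3-kinase complex, which makes the lipid that recruits WIPI proteins, had few calls. None of its 6 genes was called in CD VEH against WT VEH or in either JZL184 comparison. Of all genes 30.4% were called in the first, 33.9% for JZL184 in CD hearts and 29.4% in WT hearts. The median log2 fold-changes of the 6 were -0.02, 0.12 in CD hearts and 0.00488 in WT hearts. Becn1 (Beclin 1), the regulatory subunit, was at 41.8 and 42.4 CPM in WT VEH, 43.2, 44.5 and 41.4 in WT JZL184, 44.0, 44.2 and 43.7 in CD VEH, and 40.8, 44.0 and 41.1 in CD JZL184. The 3 CD VEH mice lay above both WT VEH mice, within a range of 1.09-fold over all 11, and the difference of 0.06 ± 0.06 had an adjusted p of 0.476. The catalytic subunit Pik3c3 gave -0.04 ± 0.08, the pseudokinase subunit Pik3r4 -0.14 ± 0.07, Atg14 -0.05 ± 0.08 and Uvrag 0.10 ± 0.08 in the same comparison. Ambra1, a scaffold that binds Beclin 1, was called in CD JZL184 against WT JZL184 alone, at 0.23 ± 0.07 (adjusted p = 0.023), and that call was lost without CD JZL184 mouse A or C or WT JZL184 mouse A, and with only the groups compared in the model.

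The genes that shape the growing membrane held the member whose call in CD VEH against WT VEH was the least dependent on the settings. Wipi1 (ENSMUSG00000041895.15, chr11:109573331-109611967, minus strand) encodes a phosphoinositide-binding protein recruited to the phagophore. It measured 91.2 and 91.7 CPM in WT VEH, 71.6, 69.5 and 66.3 in CD VEH, 70.1, 68.8 and 66.8 in WT JZL184, and 82.6, 89.0 and 86.4 in CD JZL184. The 4 groups fell into a higher pair and a lower pair with no overlap between the pairs, and every CD JZL184 mouse stayed below both WT VEH mice. The log2 fold-change was -0.41 ± 0.06 between CD VEH and WT VEH (adjusted p = 0.00212), 0.31 ± 0.05 for JZL184 in CD hearts (adjusted p = 0.00267) and -0.41 ± 0.06 for JZL184 in WT hearts (adjusted p = 0.00197). Wipi1 was called in 14 of 14, 15 of 15 and 14 of 14 alternatives of these comparisons. For CD VEH against WT VEH its adjusted p was highest, 0.0425, without WT VEH mouse C.

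Atg2b, which encodes a lipid-transfer protein that feeds the phagophore, followed a like course. Its levels were 23.0 and 22.8 CPM in WT VEH, 17.1, 18.4 and 17.4 in CD VEH, 17.1, 16.2 and 18.9 in WT JZL184, and 22.5, 20.7 and 21.5 in CD JZL184. Again the CD VEH and WT JZL184 mice all lay below the other 5 mice. The difference was -0.39 ± 0.07 between CD VEH and WT VEH (adjusted p = 0.00529) and 0.29 ± 0.07 with JZL184 in CD hearts (adjusted p = 0.0088). The first call was lost without WT VEH mouse C, where its adjusted p was 0.0571. With a transcript length offset the genotype difference was -0.23 and still called, whereas the JZL184 difference was 0.14 and not called (adjusted p = 0.0628). Its paralogue Atg2a was at 12.5 CPM in both WT VEH mice and 14.5 to 18.1 CPM in CD JZL184, with a call of 0.43 ± 0.11 for JZL184 in CD hearts and a value of -0.05 ± 0.12 in CD VEH against WT VEH. Atg9a, the scramblase of the seed vesicles, gave -0.23 ± 0.09 between CD VEH and WT VEH (adjusted p = 0.0879) and rose with JZL184 in CD hearts by 0.33 ± 0.09, a call lost without CD VEH mouse A or E. Wipi2, the WIPI family member needed for LC3 lipidation, was not called in any comparison and had 0.11 ± 0.06 in CD VEH against WT VEH. Vmp1 and Zfyve1 (DFCP1), which act at the endoplasmic reticulum, were not called either.

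None of the 8 conjugation genes was called in any of the 5 pairwise comparisons. Of all genes 0.186% were called in CD JZL184 against WT VEH and 29.4 to 38.3% in the others. The 8 are the E1-like Atg7, the E2-like Atg3 and Atg10, the conjugate Atg12 with Atg5 and Atg16l1, and the proteases Atg4b and Atg4d. Their log2 fold-changes lay between -0.17 and 0.08 in CD VEH against WT VEH, with a median of -0.02. The largest standard error in that group was 0.08. In CD JZL184 against WT VEH the range was -0.16 to 0.06. Atg7 and Atg16l1 were called in the interaction of genotype and JZL184 described below, at 0.27 and 0.29.

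The ATG8 proteins were the group with called increases in CD VEH. All 5 had values above 0 in CD VEH against WT VEH, of which Map1lc3a and Gabarap were called. Of all genes 15.0% were called higher there, and 26.4% of those of at most 2746 bases, the length class that holds both. Map1lc3a (LC3A) was at 237 and 254 CPM in WT VEH, 264, 247 and 249 in WT JZL184, 284, 285 and 287 in CD VEH, and 258, 273 and 255 in CD JZL184. Every CD VEH mouse exceeded the other 8 mice. The difference from WT VEH was 0.21 ± 0.06 (adjusted p = 0.03), it was called in 7 of 14 alternatives, and it was -0.02 once transcript length was taken into account.

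Gabarap, an ATG8 protein of the GABARAP branch that also acts late in autophagosome closure, was at 119 and 130 CPM in WT VEH, 156, 151 and 136 in WT JZL184, 159, 142 and 158 in CD VEH, and 132, 133 and 132 in CD JZL184. All mice of the other groups lay above both WT VEH mice. It was higher by 0.29 ± 0.08 in CD VEH (adjusted p = 0.0167) and by 0.25 ± 0.08 in WT JZL184 (adjusted p = 0.0295), and lower by -0.22 ± 0.07 in CD JZL184 than in CD VEH (adjusted p = 0.0287). Omitting CD VEH mouse A left a genotype difference of 0.25 with an adjusted p of 0.0615, and it was likewise not called without CD VEH mouse E or either WT VEH mouse. The JZL184 difference in CD hearts lost its call on the omission of any of the 6 mice but CD VEH mouse C. With a transcript length offset the genotype difference was 0.10 (adjusted p = 0.301) and the JZL184 difference in CD hearts -0.02 (adjusted p = 0.837). The call for JZL184 in WT hearts was kept in 8 of 14 alternatives. Map1lc3b (LC3B), the form most used as an autophagosome marker, was at 163 and 179 CPM in WT VEH, 186, 198 and 167 in WT JZL184, 186, 193 and 188 in CD VEH, and 167, 181 and 172 in CD JZL184. CD VEH lay above WT VEH in every mouse, but the difference of 0.13 ± 0.08 was not called (adjusted p = 0.208). Gabarapl1 was at 68.4 and 73.9 CPM in WT VEH, 75.0, 83.1 and 71.7 in WT JZL184, 77.5, 77.0 and 68.9 in CD VEH, and 72.5, 74.6 and 68.6 in CD JZL184, with overlapping groups. Gabarapl2 was lower with JZL184 in CD hearts (-0.21 ± 0.07, adjusted p = 0.0297), a call lost on the omission of any of the 6 mice but CD VEH mouse C, with no filter on low counts, and with the length offset (-0.06). Genes of this family have processed copies elsewhere in the genome. Reads shared with annotated copies would be divided by estimation, and the uncertainty this adds to their levels was not measured.

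**Figure D2:**
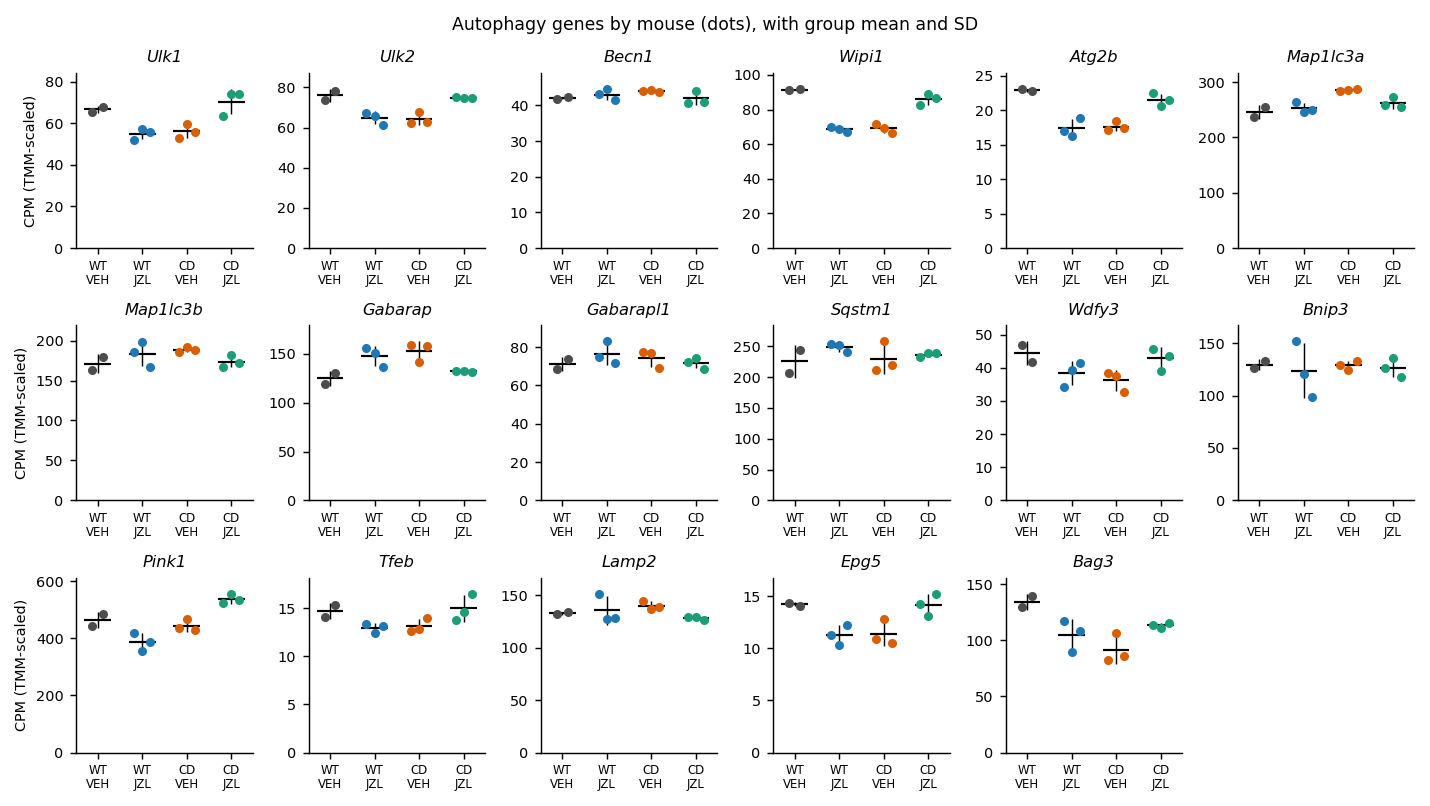
TMM-scaled CPM (y axes, from 0) of 17 members in each of the 11 mice (dots) by group (x axes), with the group mean (horizontal bar) and SD (vertical bar). Wipi1 and Atg2b lie lower in CD VEH and WT JZL184 than in WT VEH and CD JZL184, whereas Sqstm1 and Gabarapl1 show overlapping groups.

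Cargo receptors were mostly not called. Sqstm1 (p62), whose transcript rises under oxidative stress and whose protein is consumed by autophagy, was at 207 and 244 CPM in WT VEH, 254, 252 and 240 in WT JZL184, 211, 258 and 219 in CD VEH, and 232, 239 and 239 in CD JZL184. The groups overlapped and the genotype difference was 0.02 ± 0.09 (adjusted p = 0.888). Nbr1 and Tax1bp1, which act beside p62, gave -0.07 ± 0.09 and -0.03 ± 0.07. Optn, a receptor for ubiquitin-tagged mitochondria, had -0.31 ± 0.11 in CD VEH against WT VEH and narrowly missed the threshold (adjusted p = 0.0516). Wdfy3 (ALFY), the scaffold that couples aggregates to LC3, was at 46.9 and 41.8 CPM in WT VEH, 34.3, 39.3 and 41.5 in WT JZL184, 38.3, 37.4 and 32.7 in CD VEH, and 45.8, 39.1 and 43.5 in CD JZL184. It was lower in CD VEH by -0.30 ± 0.11, close to the threshold (adjusted p = 0.0486), and kept that call in 6 of 14 alternatives, losing it on the omission of any of the 5 mice compared, and the difference was -0.00542 with the length offset (adjusted p = 0.968). Calcoco1 rose with JZL184 in CD hearts by 0.26 ± 0.07 (adjusted p = 0.0164), a call lost without CD JZL184 mouse C or CD VEH mouse A or E.

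Of the 4 mitophagy genes none was called in CD VEH against WT VEH, where 30.4% of all genes were. Pink1 (ENSMUSG00000028756.12, chr4:138313409-138326307) was at 445 and 485 CPM in WT VEH, 420, 357 and 387 in WT JZL184, 435, 467 and 430 in CD VEH, and 523, 557 and 536 in CD JZL184. The CD JZL184 mice exceeded all others and the WT JZL184 mice lay below all others. JZL184 was accompanied by a rise of 0.28 ± 0.07 in CD hearts (adjusted p = 0.0142) and by a fall, -0.26 ± 0.08, in WT hearts (adjusted p = 0.0332). The rise lost its call without CD VEH mouse E (adjusted p = 0.055), and the fall kept its call in 7 of 14 alternatives. Bnip3, a hypoxia-induced outer membrane receptor, was at 126 and 133 CPM in WT VEH, 152, 121 and 99.1 in WT JZL184, 129, 125 and 133 in CD VEH, and 127, 136 and 117 in CD JZL184. The 3 WT JZL184 mice spanned the whole range of the 11, and no comparison was called.

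Bnip3l (NIX), the receptor that clears mitochondria from maturing red cells, was at 50.8 and 47.9 CPM in WT VEH, 54.8, 60.1 and 53.1 in WT JZL184, 70.7, 54.2 and 54.7 in CD VEH, and 48.5, 49.2 and 44.6 in CD JZL184. CD VEH mouse A stood apart. Its mean chi-square per gene over all genes was 93.4 and 91.1 against the other CD VEH mice, which differed from each other by 28.5. Summed erythroid markers, 4 genes led by globins, were at 13268 CPM in that mouse and at most 3688 CPM in the other 10. The fall with JZL184 in CD hearts, -0.34 ± 0.10 (adjusted p = 0.0211), was -0.20 with an adjusted p of 0.0848 without that mouse, and the call was also lost without CD JZL184 mouse E (-0.30, adjusted p = 0.0833). The part of red cell RNA in this difference was not tested further. Fundc1 was lower with JZL184 in CD hearts by -0.20 ± 0.07 (adjusted p = 0.0387), a call kept in 6 of 15 alternatives, with -0.08 under the length offset.

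Among lysosomal and transcriptional members, Tfeb, the transcription factor that drives lysosome and autophagy genes, was at 14.2 and 15.3 CPM in WT VEH, 13.3, 12.4 and 13.1 in WT JZL184, 12.7, 12.8 and 14.0 in CD VEH, and 13.8, 14.6 and 16.5 in CD JZL184. CD VEH lay below WT VEH in each mouse, yet the difference, -0.17 ± 0.08, was not called (adjusted p = 0.139). Its relative Tfe3 gave 0.22 ± 0.11 (adjusted p = 0.147). Lamp2, whose loss causes Danon cardiomyopathy, was at 132 and 134 CPM in WT VEH, 152, 127 and 128 in WT JZL184, 145, 137 and 139 in CD VEH, and 129, 129 and 126 in CD JZL184, with no call in any comparison, and neither was Lamp1 called. Epg5, a tether that joins autophagosomes to lysosomes, was at 14.4 and 14.1 CPM in WT VEH, 11.3, 10.3 and 12.2 in WT JZL184, 10.9, 12.8 and 10.5 in CD VEH, and 14.3, 13.1 and 15.2 in CD JZL184. The lower and upper pairs of groups did not overlap. It was lower in CD VEH by -0.33 ± 0.10 (adjusted p = 0.0301) and higher with JZL184 in CD hearts by 0.31 ± 0.09 (adjusted p = 0.0214), and with a transcript length offset these were -0.12 and 0.12, neither of them called. The JZL184 call was also lost without CD VEH mouse A or E or CD JZL184 mouse A or E, and the genotype call without CD VEH mouse A or E or either WT VEH mouse.

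Bag3 (ENSMUSG00000030847.8, chr7:128523616-128546981), a co-chaperone that directs damaged sarcomere proteins to autophagy and whose mutation causes dilated cardiomyopathy, showed the largest difference of any member between CD VEH and WT VEH. Its levels were 130 and 140 CPM in WT VEH, 117, 89.9 and 109 in WT JZL184, 82.8, 106 and 86.0 in CD VEH, and 114, 111 and 115 in CD JZL184. Both WT VEH mice lay above the other 9, and CD VEH mouse C overlapped the WT JZL184 mice. The log2 fold-change was -0.56 ± 0.11 between CD VEH and WT VEH (adjusted p = 0.00634), -0.35 ± 0.11 for JZL184 in WT hearts (adjusted p = 0.0392) and 0.30 ± 0.10 for JZL184 in CD hearts (adjusted p = 0.0399). The JZL184 call in CD hearts was lost on the omission of any of the 6 mice but CD VEH mouse C, with adjusted p between 0.0659 and 0.141, and that in WT hearts was kept in 8 of 14 alternatives. In CD JZL184 against WT VEH the difference was -0.26 ± 0.11, not called (adjusted p = 0.525). The genotype difference stayed between -0.50 and -0.68 in all 14 alternatives and lost its call, with adjusted p of 0.0513 and 0.0502, without WT VEH mouse C or D. Of the 6 partner genes of BAG3, 2 were also lower in CD VEH, the small heat shock protein gene Hspb8 by -0.38 ± 0.09 (adjusted p = 0.00899) and Synpo2 by -0.40 ± 0.12 (adjusted p = 0.0243), where 15.4% of all genes were called lower.

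Promoter windows of RefSeq transcripts (250 bases before to 50 bases after the start, GRCm38.p6) were available for 38 of 47 members, in 46 windows. The E-box CACGTG, the core of the site bound by TFEB and its relatives, occurred on either strand in 6 windows (13.0%), those of Atg3, Atg5, Atg7, Atg14, Bnip3 and Lamp1, and in 7.15% of 32851 windows genome-wide. None of these 6 genes was called in CD VEH against WT VEH, where 30.4% of all genes were. Atg7 was called in the interaction of genotype and JZL184 described below, at 0.27. The extended form TCACGTGA, which contains the E-box, occurred in Atg3 alone and in 0.974% of all windows. The form TTCNNGAA of the heat shock motif was in the windows of Atg13 and Vmp1 (8.52% of all windows). Other forms of that motif were not searched, so whether other windows, that of Bag3 included, hold a heat shock motif was not tested. The forkhead motif GTAAACA was in 0 member windows (3.65% of all), and the GC box GGGCGG in 29 (35.7% of all). The windows of the members with the steadiest and the largest difference, Wipi1 (chr11:109611340-109611639, minus strand) and Bag3 (chr7:128523333-128523632, plus strand), are shown beside that of Atg3 (chr16:45158579-45158878, plus strand), which holds 2 E-boxes and did not differ. Capitals mark GC boxes in all 3 and, in Atg3, the E-box and the extended E-box.
Wipi1: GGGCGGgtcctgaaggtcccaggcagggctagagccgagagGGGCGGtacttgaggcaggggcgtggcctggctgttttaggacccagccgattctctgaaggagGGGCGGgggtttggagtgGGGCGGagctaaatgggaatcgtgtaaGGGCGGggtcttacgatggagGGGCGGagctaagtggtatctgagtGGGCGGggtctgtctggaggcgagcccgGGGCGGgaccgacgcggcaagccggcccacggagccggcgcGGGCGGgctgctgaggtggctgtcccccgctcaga
Bag3: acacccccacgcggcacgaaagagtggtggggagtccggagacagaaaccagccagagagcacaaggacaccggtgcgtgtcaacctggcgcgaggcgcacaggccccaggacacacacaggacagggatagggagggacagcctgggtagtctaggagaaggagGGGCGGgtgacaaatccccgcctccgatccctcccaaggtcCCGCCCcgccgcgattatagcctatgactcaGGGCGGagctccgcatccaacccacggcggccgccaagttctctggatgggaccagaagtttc
Atg3: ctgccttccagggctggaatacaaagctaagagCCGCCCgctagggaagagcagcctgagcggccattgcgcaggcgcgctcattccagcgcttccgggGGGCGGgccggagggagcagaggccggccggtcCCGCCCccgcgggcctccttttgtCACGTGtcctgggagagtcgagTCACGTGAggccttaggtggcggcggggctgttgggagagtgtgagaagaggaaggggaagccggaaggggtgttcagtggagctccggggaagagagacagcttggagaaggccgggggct
Wipi1 held 9 GC boxes and no E-box, and Bag3 held 3 GC boxes and no E-box. Atg3 was at 16.3 to 18.3 CPM in all 11 mice.

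Whether JZL184 was accompanied by the same difference in both genotypes was tested by the interaction term, the JZL184 difference in CD hearts minus that in WT hearts. It was called above 0 for 16 members and below 0 for 5, where 25.3% and 26.2% of all genes were called in those directions, and its median was 0.10. Wipi1 had the largest value, 0.72 ± 0.08 (adjusted p = 0.000128), followed by Atg2a at 0.71 ± 0.16, Atg2b at 0.68 ± 0.10, Bag3 at 0.65 ± 0.15, Epg5 at 0.64 ± 0.14 and Ulk1 at 0.59 ± 0.11. Each of these 6 was called in 19 of 19 alternatives. Those below 0 were Bnip3l at -0.53 ± 0.15, Gabarap at -0.47 ± 0.10, Atg101 at -0.44 ± 0.12, Tfe3 at -0.41 ± 0.15 and Gabarapl2 at -0.29 ± 0.10. With a transcript length offset the interaction of Atg101 was -0.05 (adjusted p = 0.747) and that of Gabarap -0.10 (adjusted p = 0.378), neither of them called, Gabarapl2 turned to 0.000547, and Atg101 was not called with a GC content offset either. No gene of the class III phosphatidylinositol 3-kinase complex was called.

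**Figure D3:**
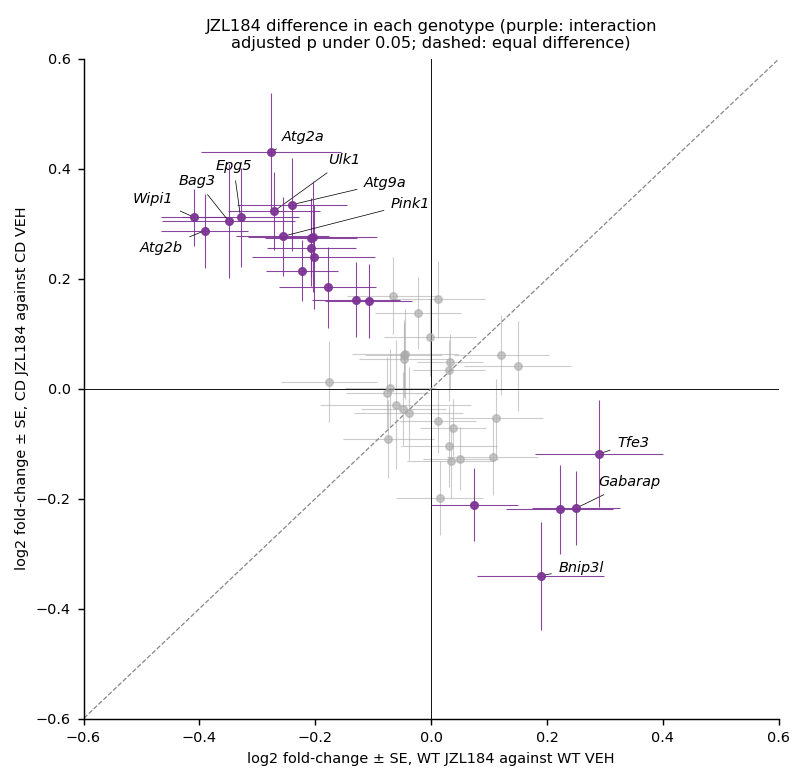
Log2 fold-change with SE for JZL184 against vehicle in WT hearts (x axis) and in CD hearts (y axis) for the 47 members. Purple points have a called interaction (21 members) and grey points do not, and the dashed line marks an equal difference in both genotypes. Wipi1, at -0.41 in WT and 0.31 in CD hearts, lies farthest from that line.

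Fold-changes of the members varied with transcript length, as did those of all genes. In CD VEH against WT VEH the Spearman correlation between log2 fold-change and the length of the longest transcript was -0.36 over the 47 members and -0.41 over 11240 genes, which share the same libraries and are not independent. It was 0.45 and 0.43 for JZL184 in CD hearts, and -0.34 and -0.33 for JZL184 in WT hearts. Among members longer than 4417 bases, 5 of 16 were called lower in CD VEH, where 28.7% of all genes of that length were. Among those of at most 2746 bases, 2 of 16 were called higher, where 26.4% of all such genes were. The called increases, Map1lc3a (1112 bases) and Gabarap (1351 bases), are the shortest and the third shortest of the list, and Wdfy3 (14274 bases) and Epg5 (9660 bases) the longest. With an offset for transcript length 7 members (14.9%) and 24.0% of all genes were called in CD VEH against WT VEH, and of the 7 members 3 were shared with the 9 above, namely Wipi1, Atg2b and Bag3. The part of length, or of RNA quality that moves with it, in the other calls was not tested.

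**Figure D4:**
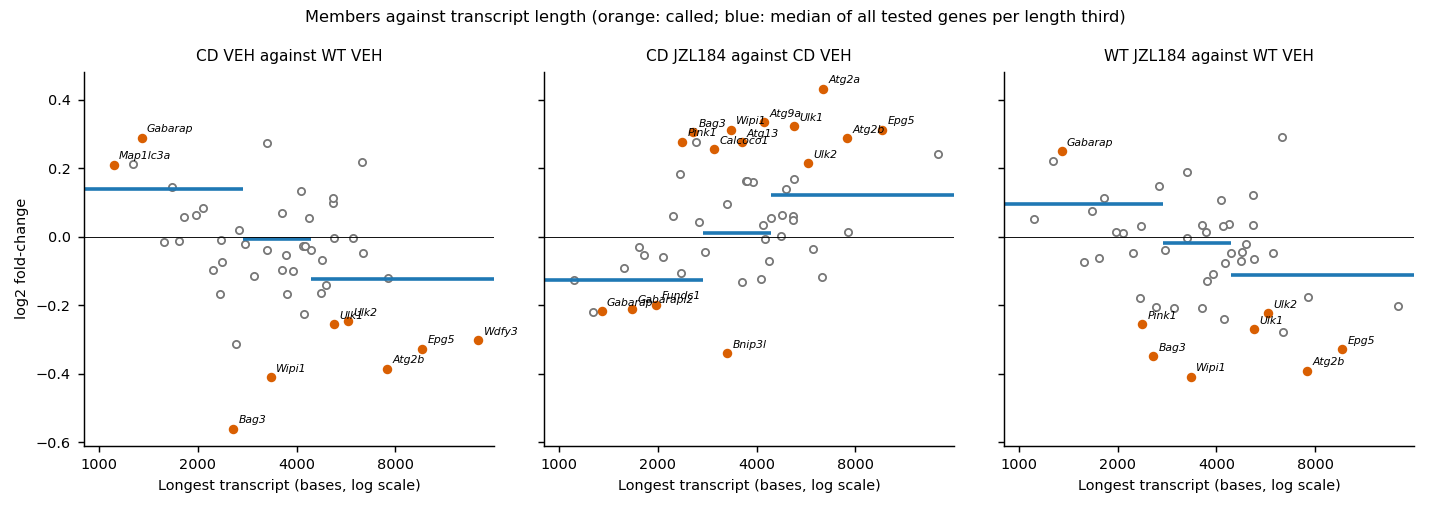
Log2 fold-change (y axis) of the 47 members against the length of their longest transcript (x axis, log scale) in 3 comparisons. Orange points are called, open points are not, and blue lines give the median of all tested genes in each of 3 length classes, 0.14 for the shortest and -0.12 for the longest in CD VEH against WT VEH.

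Other features of the libraries moved with the same groups. The mitochondrial genome took 39.4 to 41.2% of counts in WT VEH, 45.0 to 46.6% in WT JZL184, 43.5 to 44.7% in CD VEH and 36.4 to 40.1% in CD JZL184. Summed endothelial markers were 502 to 514 CPM in WT VEH, 770 to 785 in WT JZL184, 640 to 700.3 in CD VEH and 500.3 to 587 in CD JZL184, and 4 of 5 were called higher in CD VEH than in WT VEH. All 6 macrophage markers were called higher in CD VEH and in WT JZL184 than in WT VEH, and lower in CD JZL184 than in CD VEH, with sums of 131 to 143, 191 to 243, 177 to 296 and 121 to 145 CPM in WT VEH, CD VEH, WT JZL184 and CD JZL184. Of the 6 cardiomyocyte markers 2, Myh6 and Actc1, were called lower in CD VEH and 0 higher, with a list median of -0.07 and values of 0.25 for Myl2 and 0.24 for Tnni3 that were not called. Fibroblast markers summed to 565 to 581 CPM in WT VEH, 669 to 754 in CD VEH, 728 to 885 in WT JZL184 and 528 to 586 in CD JZL184, with 2 of 5 called higher in CD VEH and 3 of 5 in WT JZL184 than in WT VEH. Of 3 tested smooth muscle markers 2 were called higher in each of those comparisons. The groups with lower Wipi1, Atg2b and Epg5 were therefore the groups with higher mitochondrial, endothelial, fibroblast, smooth muscle and macrophage counts, and the part of these in the members' differences was not tested. In bulk tissue fewer cells of a type and less RNA per cell cannot be told apart.

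**Figure D5:**
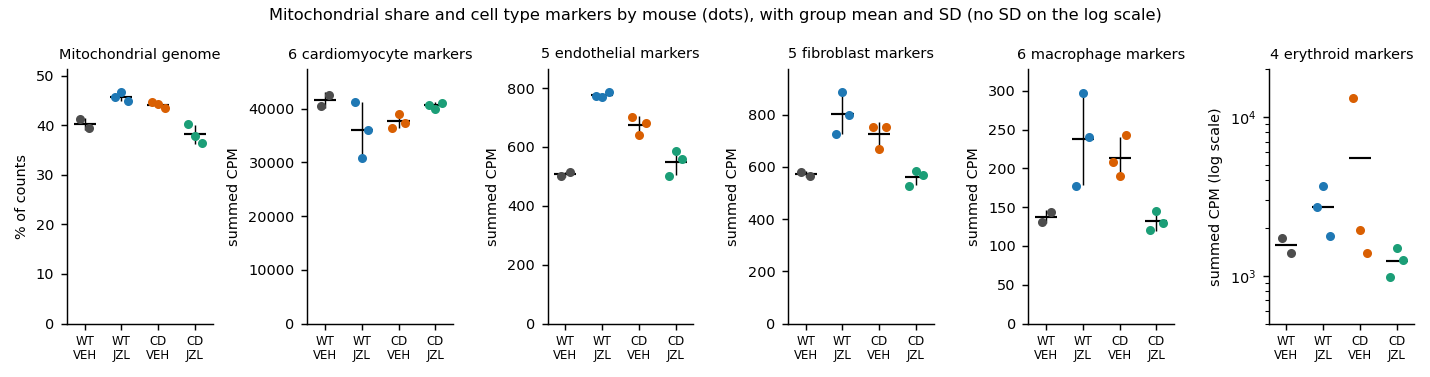
Share of counts from the mitochondrial genome and summed CPM of marker genes of 5 cell types (y axes) in each mouse (dots) by group (x axes), with the group mean and SD, the erythroid panel on a log scale without SD. Endothelial and macrophage sums are higher in CD VEH and WT JZL184 than in WT VEH, and CD VEH mouse A stands apart at 13268 CPM for erythroid markers.

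Further genes of the pathway were described from 5 additional lists, whose counts are to be read beside the 15.0% of all genes called higher and 15.4% called lower in CD VEH against WT VEH. Of 29 other autophagy genes 1 was higher and 6 were lower in CD VEH than in WT VEH, among them Foxo3, a transcription factor that drives autophagy genes in muscle, by -0.45 ± 0.09 (adjusted p = 0.00616), and Mitf, a relative of TFEB, by -0.40 ± 0.12 (adjusted p = 0.0256). Of 15 fusion genes 3 were higher and 3 lower. Vamp8, a SNARE of the autophagosome-lysosome pair, rose by 0.42 ± 0.06 (adjusted p = 0.00253) and Bloc1s1 by 0.31 ± 0.07. Of 22 lysosomal hydrolases 3 were higher and 3 lower, Ctsz (cathepsin Z) at 0.49 ± 0.13 and Idua (alpha-L-iduronidase) at -0.45 ± 0.08. Of 23 lysosomal membrane and proton pump genes 2 were higher and 1 was lower, with the pump subunits Atp6v0a1 at -0.59 ± 0.08 (adjusted p = 0.00181) and Atp6v0e at 0.33 ± 0.08 (adjusted p = 0.0128). No tested gene of these lists was called by edgeR in CD JZL184 against WT VEH. With JZL184 in CD hearts, where 16.8% of all genes were called higher and 17.0% lower, 8 of the other autophagy genes were higher and 3 lower, 4 fusion genes were higher and 2 lower, 4 hydrolases were higher and 3 lower, and 2 membrane and pump genes were higher and 4 lower.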

How the data were processed

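RNA-seq of 11 mouse hearts was analysed. The authors quantified transcripts with Salmon 0.7.2 against Ensembl release 85 (GRCm38), and tximport 1.2.0 gave gene totals. The deposited values are estimated counts per gene, which need not be whole, and were rounded. Trimming and strandedness were not given in the sources used here. Transcript length corrections by tximport were not in the table and were not used. Columns carry a group and a letter, which grouped the samples.

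Symbols, positions and transcript lengths came from GENCODE mouse release 21, in which 22238 of 22608 genes matched. All 4 groups entered a single edgeR 4.0.16 quasi-likelihood model (R 4.3.3, TMM scaling, average log2 CPM of at least 1, Benjamini-Hochberg adjustment over 11319 genes). Standard errors were taken from the log2 fold-change and its F statistic. The common biological coefficient of variation was 9.13%. The 6 comparisons were also run with DESeq2 1.42.0, other scalings and filters, length and GC content offsets (loess, span 0.5), without mitochondrial genes, within the groups compared, and without each mouse. The steps were tested on simulated data. Replicates differed by 17.3 to 93.4 in mean chi-square per gene, the highest values being those of CD VEH mouse A, so none was counted as a repeat. Counting limits cover counting error only. All members could be named. Values in every mouse were given for 11 members named for what they are known for, for the called members with the highest and lowest log2 fold-change between CD VEH and WT VEH in each role, and for Bnip3l, chosen after its values were seen. From each other list at most the 2 called genes with the largest absolute log2 fold-change in that comparison were named. Members and lists were chosen with earlier results of these data known.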

Additional observations from a re-analysis of the deposited data

Results flagged for a closer look

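The JZL184 difference differed between CD and WT hearts for 21 of 47 members by the interaction term (edgeR quasi-likelihood test, adjusted p under 0.05), given here as the log2 difference in CD minus that in WT. Among membrane and initiation genes it was 0.72 for Wipi1, 0.71 for Atg2a, 0.68 for Atg2b, 0.58 for Atg9a, 0.59 for Ulk1, 0.44 for Ulk2, 0.48 for Atg13 and -0.44 for Atg101 (-0.05 with a transcript length offset). For the conjugation genes Atg7 and Atg16l1 it was 0.27 and 0.29, kept in 10 and 12 of 19 alternatives, and for the ATG8 proteins Gabarap and Gabarapl2 it was -0.47 and -0.29, with neither called under a transcript length offset. Among receptors and mitophagy genes it was 0.48 for Optn, 0.46 for Calcoco1, 0.44 for Wdfy3 (-0.0573 with a transcript length offset), 0.53 for Pink1 and -0.53 for Bnip3l. For Bag3 it was 0.65, for Epg5 0.64, for Tfeb 0.36 and for Tfe3 -0.41, the last kept in 12 of 19 alternatives. All 3 mice of each JZL184 group and all vehicle mice entered this test, which called 25.3% of all genes above 0 and 26.2% below 0. No group had 4 or more mice, so the gap test for a distant sample was not applied within groups.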

How the results depend on the processing

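Without any 1 mouse, the members called numbered 1 to 12 in CD VEH against WT VEH (3.41 to 31.3% of all genes), 6 to 17 for JZL184 in CD hearts (2037 of 11314 genes to 34.5%), 1 to 14 for JZL184 in WT hearts (4.93 to 39.5%), 9 to 13 in CD JZL184 against WT JZL184 (26.1 to 43.0%) and 16 to 21 for the interaction (40.5 to 56.6%), and 0 in CD JZL184 against WT VEH (0.106 to 0.168%). At an adjusted p under 0.01 the first 5 counts were 3, 3, 2, 8 and 12, beside 1149, 1553, 1107, 2227 and 3889 of all 11319 genes, in the same order. With only the groups compared in the model, 2 members and 14.6% of all genes were called for JZL184 in WT hearts. The other settings left each count within 1.5 times. With a transcript length offset the sign turned for Map1lc3a between CD VEH and WT VEH (-0.0151) and, in the interaction, for Map1lc3a (0.26), Gabarapl2 (0.000547) and Wdfy3 (-0.0573); differences called in neither fit were given no direction. WT VEH holds 2 mice, and leaving out either leaves 1 that is assumed to vary like the other groups. No paired analysis was possible because the columns carry letters in place of the replicate numbers of the labels; the letters recur across groups, no source used here says that they pair mice, and no fit used them as a block.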
